A study of Mus musculus with 4 samples.

Results

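MiRs of proangiogenic cells (PACs) from smoke-exposed mice (SMK) were compared with those of PACs from unexposed control mice (CTL). PACs are bone marrow cells that adhere to fibronectin in endothelial growth medium and favor the growth of vessels, here isolated from mice with hindlimb ischemia, made by surgical removal of the femoral artery, and cultured for 4 days. The comparison covers all 568 mature miRs of the table. Folds were read on the 146 miRs with at least 100 RPM (the study's reads per 1000000 mapped reads) in either library. The other 422 miRs were under 100 RPM in both libraries. SMK mice were C57Bl/6 mice aged 2 months that breathed the smoke of commercial cigarettes from a smoking machine, beginning before surgery. CTL mice were C57Bl/6 mice aged 2 months without smoke. The labels give a pool of 4 samples for SMK and of 6 samples for CTL. The other libraries of the series were from PACs of C57Bl/6 mice aged 16 months (aging, a pool of 2 samples) and of APOE-/- mice aged 2 months on a Western-type diet (HC, a pool of 4 samples). RNA was pooled before sequencing, so each condition had 1 library, the spread between mice could not be measured and no p-value is given. All mice of the 4 groups had ischemia, so that the response to ischemia itself is not seen in the comparison.

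A miR is cut from a hairpin transcript, and 1 arm of the hairpin, 5p or 3p, usually persists as the guide that Argonaute carries to messenger RNAs. The guide finds its targets mainly by its seed, bases 2 to 8 from the 5′ end, so that miRs with 1 seed repress overlapping sets of genes. In bone marrow-derived cells, miR-223 and miR-142 are typical of the myeloid lineage, miR-126 is typical of endothelial cells and progenitors, and miR-146a and miR-155 respond to inflammatory signals.

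Mature sequences from RefSeq (GRCm38.p6) were matched by name to 132 of the 146 miRs. Those printed are the miRs on which the comparison turns, first relatives with 1 seed whose folds differed, then relatives that moved alike, then single miRs with extreme folds. Each is written 5′ to 3′ with the seed in capitals. The miR-29 family represses collagen genes, and its members had the lowest fold of the 146 miRs as well as a fold above 1.
miR-29c-3p: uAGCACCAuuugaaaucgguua
miR-29a-3p: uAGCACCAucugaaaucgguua
miR-29b-3p: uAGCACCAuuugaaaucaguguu

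The let-7 family restrains proliferation and is the largest family of the table by number of miRs above 100 RPM. Of its members, let-7f-5p was lower while let-7a-5p, 1 base apart, was not.
let-7f-5p: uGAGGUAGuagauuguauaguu
let-7i-5p: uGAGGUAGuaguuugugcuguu
let-7a-5p: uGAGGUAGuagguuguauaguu
let-7b-5p: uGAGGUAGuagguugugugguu

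The next families each held 1 or more higher miRs beside a member between the limits. They are the cell cycle repressors of the miR-15 and miR-16 family, the miR-125 family of stem and myeloid cells, miR-92a with miR-25, the Hox cluster miRs miR-10a and miR-10b, and the c-Kit repressors miR-221 and miR-222.
miR-15b-5p: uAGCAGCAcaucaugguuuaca
miR-15a-5p: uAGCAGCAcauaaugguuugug
miR-16-5p: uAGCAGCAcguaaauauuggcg
miR-351-5p: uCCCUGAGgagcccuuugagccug
miR-125a-5p: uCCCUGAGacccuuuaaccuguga
miR-125b-5p: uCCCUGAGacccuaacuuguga
miR-92a-3p: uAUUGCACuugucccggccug
miR-25-3p: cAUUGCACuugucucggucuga
miR-10b-5p: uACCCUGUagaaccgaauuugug
miR-10a-5p: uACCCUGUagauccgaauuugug
miR-222-3p: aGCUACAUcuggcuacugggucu
miR-221-3p: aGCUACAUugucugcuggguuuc

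In 2 families both members above 100 RPM were past the same limit, to nearly the same extent. These were miR-196, which cleaves Hox transcripts, and miR-181, known from lymphocyte development.
miR-196a-5p: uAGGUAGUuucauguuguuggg
miR-196b-5p: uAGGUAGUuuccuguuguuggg
miR-181a-5p: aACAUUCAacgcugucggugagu
miR-181b-5p: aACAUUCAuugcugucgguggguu

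The single miRs shown had folds at the ends of the range.
miR-501-3p: aAUGCACCcgggcaaggauuug
miR-423-5p: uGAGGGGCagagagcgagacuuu
miR-423-3p: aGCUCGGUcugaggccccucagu
miR-342-3p: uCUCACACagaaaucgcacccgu
miR-7a-5p: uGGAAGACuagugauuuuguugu
miR-542-3p: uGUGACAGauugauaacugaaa
miR-101b-3p: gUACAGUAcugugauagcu

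The recovered totals were 1670010 counts for SMK, 1568958 for aging, 1038986 for HC and 2541732 for CTL. A single count was worth 0.599 RPM in SMK and 0.393 RPM in CTL, so a miR at 100 RPM rested on 167 counts in SMK and 254 in CTL. Folds are SMK over CTL, and each is followed by its exact 95% interval (Clopper-Pearson, for 2 counts given their sum). These intervals hold counting error alone, so they say whether 2 libraries differ and not whether smoke made the difference. With the limits of the study's methods, miRs under 0.8-fold are called lower and miRs over 1.6-fold higher.

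Below 0.8-fold were 21 of the 146 miRs (14.4%), above 1.6-fold were 30 (20.5%), and past either limit were 51 (34.9%). The folds ran from 0.524 to 4.29, with a median log2 fold of 0.20 (SD 0.54 across miRs). The higher miRs were further from 1 than the lower ones, with 14 miRs above 2-fold and 4 above 3-fold, whereas no miR was below 0.5-fold with the deposited RPM (1 with the median ratio and 2 with the trimmed mean, the 2 scalings given below). The counting interval lay wholly above 1 for 80 miRs, wholly below 1 for 35, and included 1 for 31. It lay wholly past a limit for 25 higher and 9 lower miRs. Of the higher miRs, 9 were under 100 RPM in CTL. The balance of the 2 directions depended on the scaling between the libraries. There were 21 lower and 30 higher miRs with the deposited RPM, 32 lower and 23 higher after scaling by the median ratio, and 39 lower and 17 higher after a trimmed mean of log ratios. The median ratio shifted every log2 fold by -0.15 and the trimmed mean by -0.24. The listed miRs summed to 992046 RPM in SMK and 996242 RPM in CTL, so that RPM was in effect a share of miR counts. The paper's read summary gives fewer miR reads and more tRNA reads for SMK than for CTL. Scaling by all mapped reads, which would lower every fold, was not tried. Ratios between miRs of 1 library, on which several results below rest, do not change with the scaling between libraries.

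**Figure D1:**
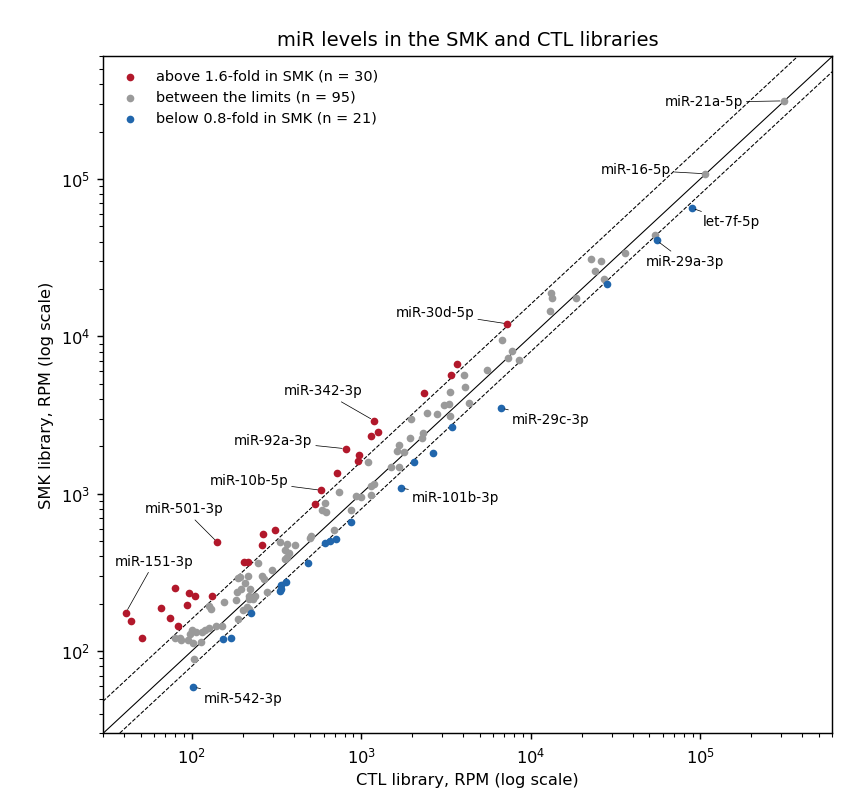
Level of each of the 146 miRs in the SMK library (vertical axis, RPM, log scale) and in the CTL library (horizontal axis, RPM, log scale). The solid line marks equal levels and the dashed lines the limits of 1.6 and 0.8. The 30 higher miRs lie mostly below 10000 RPM, while let-7f-5p and miR-29a-3p lie under the lower line at high abundance.

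In terms of RPM, the losses lay in a few abundant miRs. The 48 miRs with less RPM in SMK than in CTL had differences that summed to -72566 RPM, and 4 of them made up 75.7% of this. These 4 were let-7f-5p, which fell by 23708 RPM, miR-29a-3p, which fell by 14665 RPM, let-7i-5p with a difference of -9841 RPM at 0.817-fold, and miR-146a-5p, which fell by 6722 RPM. The 98 miRs with more RPM in SMK gained 66790.2 RPM in sum, of which the 4 largest gains made up 34.6%. The largest gain was that of the myeloid miR-223-3p, with 31208 RPM in SMK PACs and 22760.1 RPM in CTL PACs (1.37-fold, 1.36 to 1.39). It was followed by miR-125b-5p, with 18941 RPM in SMK PACs and 13151 RPM in CTL PACs (1.44-fold, 1.42 to 1.46), and by miR-30d-5p, which was higher, with 11998 RPM in SMK PACs and 7292 RPM in CTL PACs (1.65-fold, 1.61 to 1.68). These sums hold for the deposited RPM. With the median ratio the differences below 0 summed to -141676 RPM over 67 miRs and those above to 37831 RPM over 79, and miR-21a-5p had the second largest loss, -28089.6 RPM after let-7f-5p with -30211 RPM. With the trimmed mean, miR-21a-5p had the largest, -44079.6 RPM. After median ratio scaling miR-30d-5p was no longer higher (1.48-fold). MiR-21a-5p alone took 31.3% of the SMK library and 31.0% of the CTL library.

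The lower miRs were led by the collagen repressors. MiR-29c-3p comes from exonic sequence of the noncoding gene A330023F24Rik (chromosome 1, 195037547 to 195037634, GRCm38). It had 3502 RPM in SMK PACs and 6684 RPM in CTL PACs (0.524-fold, 0.508 to 0.540). MiR-29a-3p had 40634 RPM in SMK PACs and 55299 RPM in CTL PACs (0.735-fold, 0.728 to 0.742). MiR-29b-3p, made from 2 loci beside miR-29a and miR-29c, had 3229.9 RPM in SMK PACs and 2803 RPM in CTL PACs (1.15-fold, 1.11 to 1.19) and lay between the limits. The family summed to 47366 RPM in SMK and 64786 RPM in CTL (0.731-fold, 0.725 to 0.737). MiR-29b is clustered with miR-29a on chromosome 6 and with miR-29c on chromosome 1, and the 3 miRs did not change in 1 ratio. Within the libraries, the ratio of miR-29c-3p to miR-29b-3p in SMK was 0.455 (0.434 to 0.476) of that in CTL, and the ratio of miR-29a-3p to miR-29c-3p was 1.40 (1.36 to 1.45).

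Of 5 miRs known to repress the chromatin regulator Ezh2, 3 were lower and none was higher, beside 14.4% lower and 20.5% higher of all 146. Their median log2 fold was -0.36, beside 0.20 over all 146. MiR-101b-3p, from an intron of Rcl1 on chromosome 19, had 1087 RPM in SMK PACs and 1720.1 RPM in CTL PACs (0.632-fold, 0.598 to 0.668). MiR-101c had 360.5 RPM in SMK PACs and 488 RPM in CTL PACs (0.738-fold, 0.669 to 0.814) and miR-101a-3p had 1592 RPM in SMK PACs and 2043 RPM in CTL PACs (0.779-fold, 0.743 to 0.817). The 3 are near-identical in sequence, so their counts may be shared and they are not separate evidence. The other members of the list were miR-26a-5p at 1.31-fold and miR-26b-5p at 1.11-fold, both between the limits.

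MiR-7a-5p, which represses growth factor receptor signaling and is made in an intron of Hnrnpk on chromosome 13 and at a second locus on chromosome 7, had 1826 RPM in SMK PACs and 2661 RPM in CTL PACs (0.686-fold, 0.657 to 0.716). MiR-542-3p, a repressor of the survival factor survivin, had 59.3 RPM in SMK PACs and 102 RPM in CTL PACs, or 99 counts in SMK and 260 in CTL (0.580-fold, 0.455 to 0.733). It was the only lower miR that was under 100 RPM in SMK. MiR-19a-3p had 120.4 RPM in SMK PACs and 171 RPM in CTL PACs (0.705-fold, 0.593 to 0.835). MiR-30b-5p was at 0.724-fold, the axon guidance miR-218-5p at 0.727-fold and the cartilage miR-140-5p at 0.733-fold. These 3 lay between 240.1 and 710.1 RPM in both libraries, and their intervals reached no higher than 0.826. The other and more abundant arm of miR-140, miR-140-3p, had 4772 RPM in SMK PACs and 4111 RPM in CTL PACs (1.16-fold). It lay between the limits.

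Of 10 tested members of the list of inflammation-induced miRs, 2 were lower, 5 lay between the limits and 3 were higher, near the 14.4% lower and 20.5% higher of all 146 miRs, with a median log2 fold of 0.11 that turned negative under both other scalings. MiR-146a-5p, which restrains Traf6 and Irak1 in Toll-like receptor signaling, had 21375 RPM in SMK PACs and 28097 RPM in CTL PACs (0.761-fold, 0.751 to 0.770). Its seed relative miR-146b-5p had 1157 RPM in SMK PACs and 1196 RPM in CTL PACs (0.968-fold, 0.913 to 1.02). MiR-155-5p, induced in activated macrophages, had 489 RPM in SMK PACs and 611 RPM in CTL PACs (0.799-fold, 0.733 to 0.870). This value lay at the limit, and the call ended when miR-21a-5p was left out of the library totals (0.803-fold). The higher members were miR-132-3p, miR-125a-5p and miR-99b-5p, while miR-125b-5p and let-7e-5p lay between the limits. MiR-146a-5p and miR-155-5p were its 2 lower members, and the list went both ways.

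The highest folds belonged to miRs of low abundance in CTL. MiR-151-3p, made within the focal adhesion kinase gene Ptk2, had 175 RPM in SMK PACs and 40.9 RPM in CTL PACs, or 293 counts in SMK and 104 in CTL (4.29-fold, 3.42 to 5.42). MiR-328-3p had 155 RPM in SMK PACs and 43.7 RPM in CTL PACs (3.55-fold, 2.83 to 4.48). MiR-423-5p, from an intron of Nsrp1 on chromosome 11 (77078064 to 77078172, GRCm38), had 250.3 RPM in SMK PACs and 79.5 RPM in CTL PACs (3.15-fold, 2.66 to 3.74), and the other arm of its hairpin, miR-423-3p, 162 RPM in SMK PACs and 74.4 RPM in CTL PACs (2.17-fold, 1.80 to 2.63). MiR-320-3p, which is made without the nuclear enzyme Drosha, had 189 RPM in SMK PACs and 65.7 RPM in CTL PACs (2.88-fold, 2.38 to 3.50). All 5 were under 100 RPM in CTL and above it in SMK.

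Among miRs above 100 RPM in CTL, the highest fold was that of miR-501-3p, which lies intronic to Clcn5, a chloride channel gene on the X chromosome (7241243 to 7241351, GRCm38), with 492 RPM in SMK PACs and 142 RPM in CTL PACs (3.48-fold, 3.07 to 3.94). MiR-342-3p, a miR of lymphocytes from an intron of the actin regulator Evl on chromosome 12 (108658620 to 108658718), had 2919 RPM in SMK PACs and 1187 RPM in CTL PACs (2.46-fold, 2.35 to 2.57). MiR-92a-3p, which restrains vessel growth and integrin expression in endothelial cells, had 1931 RPM in SMK PACs and 811 RPM in CTL PACs (2.38-fold, 2.25 to 2.52). MiR-342-3p and miR-92a-3p rested on at least 2062 counts in both libraries. MiR-125a-5p, which represses the NF-kappaB inhibitor A20 and is made beside let-7e on chromosome 17, had 2343 RPM in SMK PACs and 1149 RPM in CTL PACs (2.04-fold, 1.94 to 2.14). MiR-361-5p, a repressor of VEGF from an intron of Chm, had 557 RPM in SMK PACs and 264 RPM in CTL PACs (2.11-fold, 1.91 to 2.33). MiR-132-3p, which is induced through CREB and restrains a Ras inhibitor in endothelial cells, was at 2.10-fold, and the other 3 measured arms of miR-132 and its neighbor miR-212 were under 100 RPM, at 1.52-fold (miR-132-5p), 1.42-fold (miR-212-3p) and 1.42-fold (miR-212-5p). MiR-125a-3p, the other arm of miR-125a, had 23 counts in SMK and 20 in CTL, and its interval included 1 (1.75-fold, 0.919 to 3.36).

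**Figure D2:**
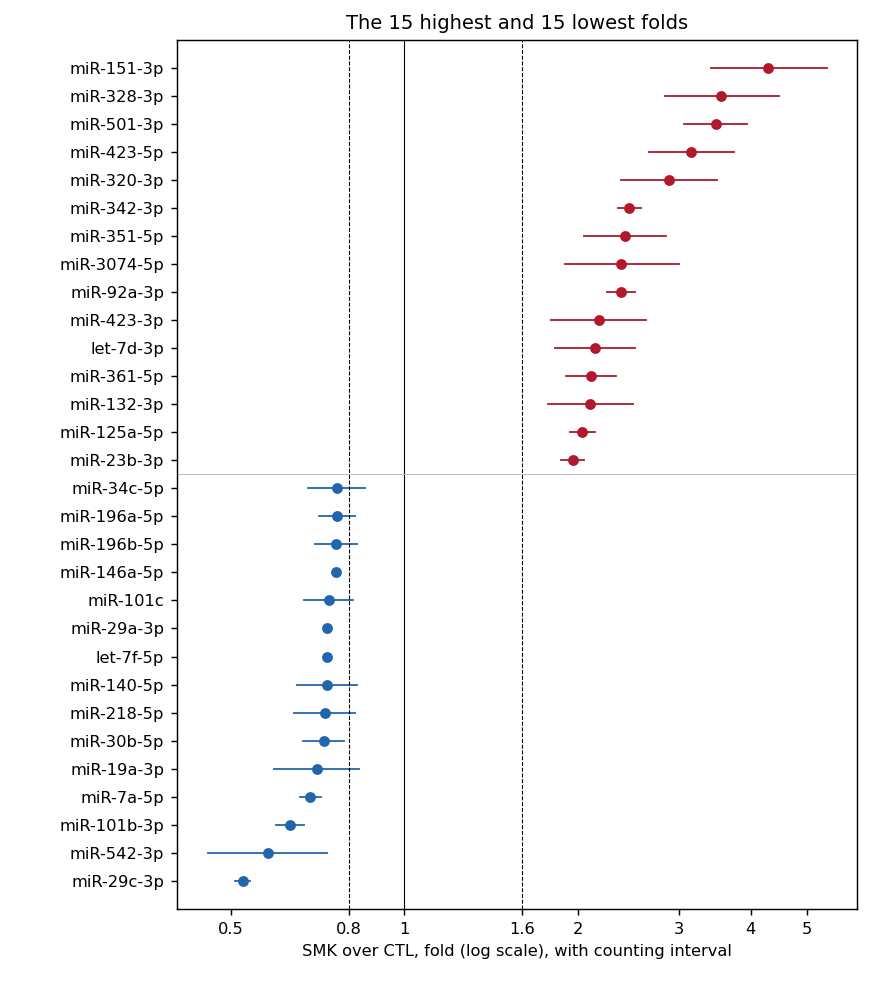
Fold of SMK over CTL (horizontal axis, log scale) for the 15 highest folds (red, above) and the 15 lowest (blue, below) of 146 miRs. Points are folds, bars are 95% counting intervals without any spread between mice, and dashed lines are the limits of 0.8 and 1.6. The bars of let-7f-5p and miR-29a-3p are shorter than their points, whereas those of miR-542-3p and miR-151-3p are wide.

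Of the 132 miRs with a sequence, 59 shared their seed with another one, in 21 families. In 7 families only lower members were past the limits, in 7 only higher members, in 7 none, and in no family both. The 14 miRs without a matched sequence are left out of these counts. Among them were miR-30b-5p (0.724-fold, lower) and miR-30d-5p (1.65-fold, higher). With them the miR-30 family, counted here among those with none past a limit, held both. The 59 miRs are not independent of each other, and no expectation was set against these counts. Summed over the measured members of a seed that had a sequence, 4 families were past the limits. They were miR-29, miR-146 with 22532 RPM in SMK and 29293 RPM in CTL (0.769-fold, 0.760 to 0.779), miR-196 with 1160.5 RPM in SMK and 1522 RPM in CTL (0.763-fold, 0.722 to 0.806), and miR-181 with 2215 RPM in SMK and 1226 RPM in CTL (1.81-fold, 1.72 to 1.90). Under both other scalings the sums of let-7, miR-148 and miR-19 passed below 0.8 as well, which gave 6 lower family sums with the median ratio and 7 with the trimmed mean. The sum added by the trimmed mean was that of miR-30 (0.768-fold), taken without miR-30b-5p and miR-30d-5p. It held 7293 RPM in SMK and 8070 RPM in CTL, beside 11998 RPM in SMK and 7292 RPM in CTL for miR-30d-5p alone. It is therefore not the sum of the whole miR-30 family. The miR-181 call is lost under the trimmed mean, where miR-181a-5p and miR-181b-5p both stood at 1.55-fold.

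Near-identical relatives differed in several families. Base differences are given with positions counted from 1 at the 5′ end and the base of the miR named first written first. MiR-29a-3p and miR-29c-3p differ by C10U alone, yet their folds were 0.735 and 0.524. Let-7f-5p and let-7a-5p differ by A12G, and their folds were 0.734 and 1.08, so that the ratio of the first to the second in SMK was 0.677 (0.667 to 0.687) of that in CTL. MiR-10b-5p and miR-10a-5p differ by A12U, and the ratio of the first to the second was 1.65 (1.53 to 1.77) of that in CTL. By contrast, miR-196a-5p and miR-196b-5p, which differ by A12C, kept a ratio of 1.003 (0.897 to 1.12), although they are made in different Hox clusters. Reads were mapped with mismatches allowed in the last step, so that some counts of near-identical miRs can have been given to the relative. The part of this in the ratios was not tested.

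The let-7 family as a whole had 170097 RPM in SMK and 199113 RPM in CTL (0.854-fold, 0.850 to 0.858), or 17.0% of the SMK library and 19.9% of the CTL library, and the sum fold was 0.769 with the median ratio and 0.726 with the trimmed mean, both below the limit. Of its 9 miRs above 100 RPM, 1 was lower and 8 lay between the limits, beside 14.4% lower and 20.5% higher of all 146 miRs. Of the 8, let-7i-5p and miR-98-5p passed below 0.8 under both other scalings. The folds of the 9 ran from 0.734 for let-7f-5p to 1.39 for let-7b-5p. Let-7i-5p had 44053 RPM in SMK PACs and 53894 RPM in CTL PACs (0.817-fold, 0.810 to 0.825) and let-7b-5p had 9448 RPM in SMK PACs and 6791 RPM in CTL PACs (1.39-fold, 1.36 to 1.42). The ratio of let-7b-5p to let-7f-5p in SMK was 1.90 (1.85 to 1.94) of that in CTL.

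In the miR-15 and miR-16 family, which restrains cyclins and Bcl2, the dominant miR-16-5p had 107793 RPM in SMK PACs and 107167 RPM in CTL PACs (1.01-fold). MiR-15b-5p was higher, with 474 RPM in SMK PACs and 262 RPM in CTL PACs (1.81-fold, 1.63 to 2.01), while miR-15a-5p had 1120.3 RPM in SMK PACs and 1139 RPM in CTL PACs (0.984-fold, 0.928 to 1.04). The family sum lay between the limits, at 111035 RPM in SMK and 109738 RPM in CTL (1.01-fold, 1.01 to 1.02). In the miR-125 family, miR-351-5p, a rodent member made on the X chromosome, was at 2.42-fold, while the fold was 2.04 for miR-125a-5p and 1.44 for miR-125b-5p. MiR-92a-3p and miR-25-3p had folds of 2.38 and 1.05. Under the trimmed mean, miR-15b-5p (1.54-fold) and miR-10b-5p (1.54-fold) were no longer higher.

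**Figure D3:**
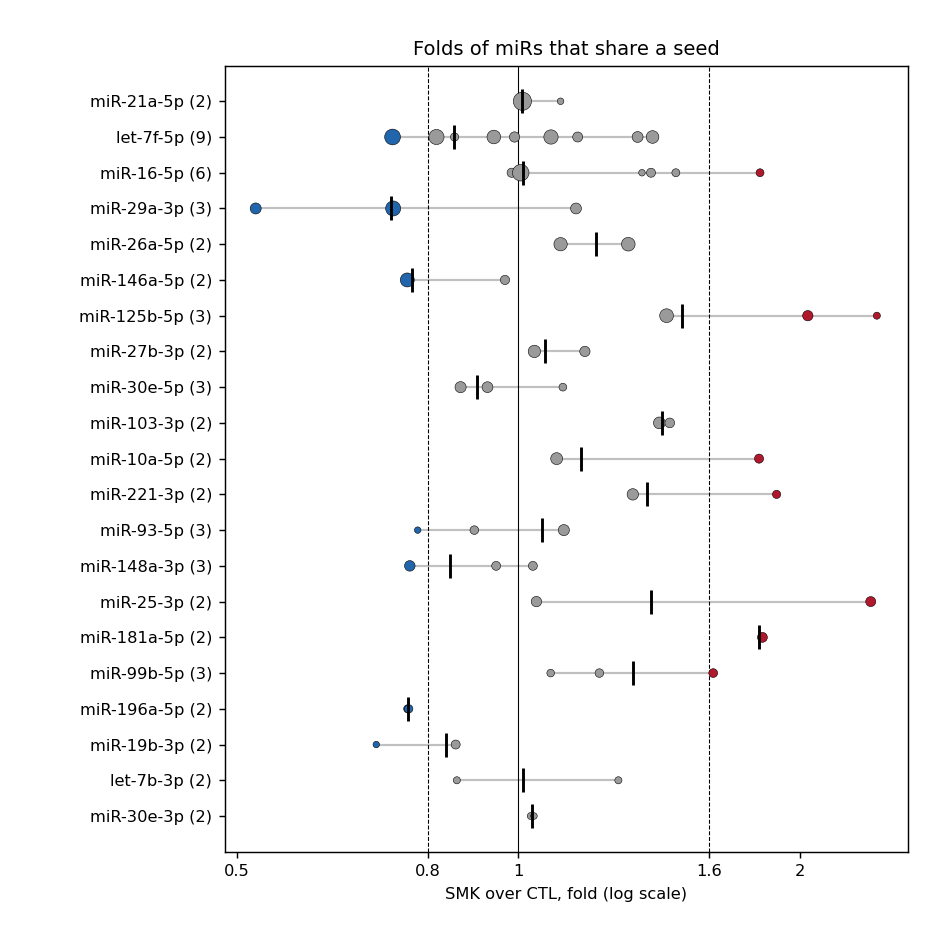
Folds of SMK over CTL (horizontal axis, log scale) for the 59 miRs that share a seed, in 21 families named by their most abundant member, with the number of miRs in parentheses. MiRs without a matched sequence, among them miR-30b-5p and miR-30d-5p, are not shown. Each point is 1 miR, larger where it is more abundant in SMK, blue below 0.8, red above 1.6 and gray between. Black ticks mark the fold of the summed family, which lies past a limit for miR-29, miR-146, miR-181 and miR-196.

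Clustered miRs, which can share a primary transcript, did not all move together. Hairpins within 10 kb on 1 strand formed 23 clusters with at least 2 miRs above 100 RPM, and in 6 of them the highest fold was over 2 times the lowest. The miR-17-92a cluster, made from the Mir17hg transcript on chromosome 14 (115043671 to 115044506, GRCm38), held lower and higher miRs at once. MiR-19a-3p was at 0.705-fold, miR-17-5p at 0.781-fold, miR-19b-3p at 0.857-fold, miR-20a-5p at 0.897-fold, miR-17-3p at 1.15-fold and miR-92a-3p at 2.38-fold. MiR-92a-3p and miR-19b-3p are also made from a paralogous cluster on the X chromosome, so that their counts mix 2 loci. That cluster is another of the 6 and rests on these same 2 miRs, so that it is not separate evidence. The let-7d, let-7f-1 and let-7a-1 cluster on chromosome 13 (48536012 to 48538272) was the other of these 23 with both directions, from let-7f-5p at 0.734-fold to let-7d-3p at 2.15-fold. Let-7f-5p is also made from a locus on the X chromosome, so that its counts too mix 2 loci. The other arm of let-7d, let-7d-5p, lay between the limits at 1.34-fold.

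In the Clcn5 cluster on the X chromosome, which held miR-501, 1 of 4 tested miRs was higher and none was lower. Over all 146 miRs, 20.5% were higher and 14.4% lower, so that this count was near the background. MiR-501-3p was at 3.48-fold, beside 1.25 for miR-362-5p, 1.41 for miR-362-3p and 1.03 for miR-532-5p. In the cluster of miR-322, miR-503 and miR-542, also on the X chromosome, miR-322-5p was at 1.39-fold, miR-503-5p at 0.869-fold, miR-542-3p at 0.580-fold and miR-351-5p of the same list at 2.42-fold. The hairpin of miR-351 was not placed here, so that it is not in the count of clusters, and with it this list too held a lower and a higher miR. The miR-23, miR-27 and miR-24 clusters on chromosomes 8 and 13 had 3 higher members and 2 between the limits, beside 20.5% higher of all 146. MiR-23b-3p had 2479 RPM in SMK PACs and 1263 RPM in CTL PACs (1.96-fold, 1.87 to 2.06), miR-24-3p, which restrains endothelial growth, 4337 RPM in SMK PACs and 2353 RPM in CTL PACs (1.84-fold, 1.78 to 1.91), and miR-23a-3p 5714 RPM in SMK PACs and 3377 RPM in CTL PACs (1.69-fold, 1.64 to 1.74). The proangiogenic miR-27a-3p and miR-27b-3p of the same transcripts were between the limits, at 1.18- and 1.04-fold. MiR-3074-5p, whose hairpins lie on the strand opposite the miR-24 hairpins, was at 2.38-fold. Under the trimmed mean, miR-24-3p (1.57-fold) and miR-23a-3p (1.44-fold) were no longer higher, the second also not after median ratio scaling (1.52-fold). The 2 main miRs of the miR-191 and miR-425 cluster on chromosome 9 were both higher, miR-425-5p at 1.89-fold and miR-191-5p at 1.81-fold (1.54-fold under the trimmed mean, no longer higher), and miR-425-3p was at 1.51-fold.

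The 2 arms of a hairpin come from 1 molecule, so that their ratio does not depend on the scaling between libraries. Among 78 hairpins with both arms in the table and at least 100 RPM in 1 of them, the interval of the arm ratio left out 1 for 35, of which 17 had relatively more 5p counts in SMK and 18 relatively fewer. The ratio of 5p to 3p moved by over 2 times in 13, with 5 up and 8 down, but the intervals of miR-328, miR-195a and miR-15a included 1, and their minor arms had at most 10 counts. For most hairpins the dominant arm was the same in both libraries, with 1 exception.

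The exception was miR-151, whose arms were nearly balanced in CTL. MiR-151-5p had 37.7 RPM in SMK and 43.3 RPM in CTL, and miR-151-3p had 175 RPM in SMK PACs and 40.9 RPM in CTL PACs. The 5p arm thus took 17.7% of the counts in SMK (13.9% to 22.1%) and 51.4% in CTL (44.5% to 58.3%), and the ratio of 5p to 3p in SMK was 0.203 (0.136 to 0.303) of that in CTL. The same quantity is given below as the change of the arm ratio. The high fold of miR-151-3p was therefore not shared by the other arm of its hairpin. In miR-222, the 3p arm was at 1.89-fold and the 5p arm, under 100 RPM, at 0.490-fold (arm ratio changed by 0.260, 0.145 to 0.446). In miR-342, the 3p arm was at 2.46-fold and the 5p arm, with 20 counts in SMK and 47 in CTL, at 0.648-fold (arm ratio changed by 0.263, 0.148 to 0.454).

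The opposite shift was seen in miR-29c, where the 3p arm fell to 0.524-fold while the 5p arm, with 40 counts in SMK and 41 in CTL, was at 1.48-fold (arm ratio changed by 2.83, 1.78 to 4.50). In miR-542 the arm ratio changed by 2.35 (1.26 to 4.36), with miR-542-5p at 1.36-fold. In miR-30d, 5p was higher at 1.65-fold and 3p, with 56 counts in SMK and 109 in CTL, was at 0.782-fold (arm ratio changed by 2.10, 1.52 to 2.91). Abundant in both arms was miR-142a. MiR-142a-5p was higher, with 1623 RPM in SMK PACs and 964 RPM in CTL PACs (1.68-fold, 1.59 to 1.78), and miR-142a-3p had 33972 RPM in SMK PACs and 36128 RPM in CTL PACs (0.940-fold, 0.931 to 0.950), so that the 5p arm took 4.56% of the counts in SMK (4.39% to 4.73%) and 2.60% in CTL (2.50% to 2.70%). After median ratio scaling miR-142a-5p was no longer higher (1.52-fold), while the change of the arm ratio, 1.79 (1.69 to 1.89), does not depend on scaling. In miR-126a the change was 1.03 (0.997 to 1.07), an interval that included 1. Intervals of ratios in which a count exceeded 20000 are normal approximations on the log scale.

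**Figure D4:**
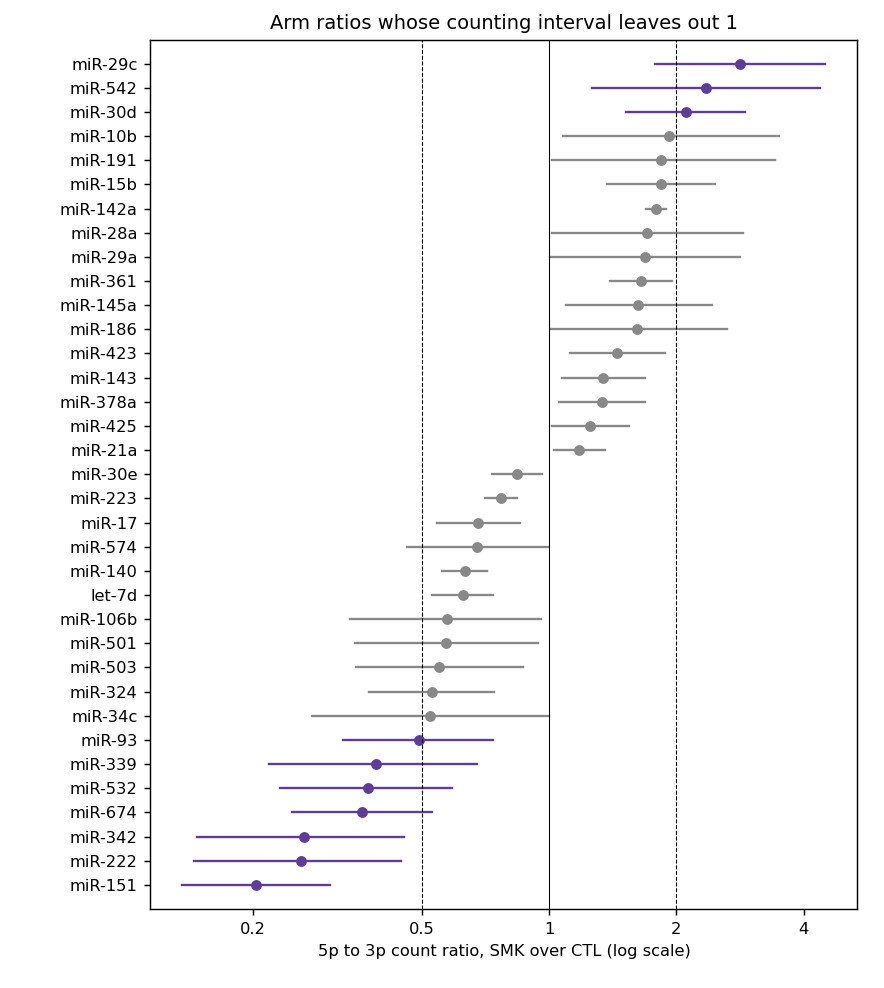
Change of the 5p to 3p count ratio, SMK over CTL (horizontal axis, log scale), for the 35 hairpins whose 95% counting interval left out 1. Points are ratios and bars are intervals, purple where the ratio moved by over 2 times (dashed lines) and gray otherwise. MiR-151, at 0.203, lies furthest to the left and miR-29c, at 2.83, furthest to the right.

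Cell type markers were examined beside the folds of all 146 miRs, of which 14.4% were lower and 20.5% higher. In bulk RNA, fewer cells of a type and less RNA per cell cannot be told apart. Of 6 measured myeloid miRs, 4 were tested, of which none was lower and 1, miR-142a-5p, was higher, and the list summed to 67372 RPM in SMK and 60386 RPM in CTL. Both arms of the endothelial miR-126a lay between the limits, with 30016 RPM in SMK PACs and 25999.6 RPM in CTL PACs for miR-126a-3p (1.15-fold, 1.14 to 1.17) and 1.19-fold for miR-126a-5p. The defining miRs of both lists, miR-223-3p, miR-142a-3p and miR-126a-3p, were abundant in both libraries. Of 8 tested stromal miRs, 2 were lower, 5 lay between and 1 was higher, with a median log2 fold of -0.15 beside 0.20 for all miRs. The list summed to 33906 RPM in SMK and 38719.7 RPM in CTL, mostly from miR-143-3p (0.858-fold, 0.848 to 0.869), which both other scalings put below 0.8 together with miR-199a-3p/miR-199b-3p. MiR-31-5p had 175 RPM in SMK PACs and 225 RPM in CTL PACs (0.776-fold, 0.671 to 0.895), and miR-10b-5p had 1051 RPM in SMK PACs and 581 RPM in CTL PACs (1.81-fold, 1.69 to 1.94). MiR-214-3p, under 100 RPM, had 85.0 RPM in SMK PACs and 26.8 RPM in CTL PACs (3.18-fold, 2.36 to 4.31), against 1.16-fold for miR-199a-5p of the same cluster.

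Markers of other cells were scarce. The lymphoid miR-150-5p had 43.1 RPM in SMK PACs and 36.2 RPM in CTL PACs, or 72 counts in SMK and 92 in CTL (1.19-fold, 0.863 to 1.64), so that miR-342-3p stood alone among the 3 measured lymphoid miRs in being higher. The 4 measured erythroid miRs summed to 81.4 RPM in SMK and 65.7 RPM in CTL, each under 100 RPM. MiR-451a, the defining miR of red cells, had 24 counts in SMK and 57 in CTL (0.641-fold, 0.380 to 1.05), an interval that included 1. The folds of miR-486a-5p (3.18-fold, 1.49 to 7.23), miR-486b-5p (1.43-fold, 1.03 to 1.97) and miR-144-5p (1.07-fold, 0.468 to 2.39) were above 1, so that the list did not go 1 way. The epithelial list summed to 337 RPM in SMK and 339 RPM in CTL. The 5 skeletal muscle miRs summed to 99.4 RPM in SMK and 66.1 RPM in CTL, but went both ways. MiR-1a-3p had 68.3 RPM in SMK PACs and 25.2 RPM in CTL PACs (2.71-fold, 1.98 to 3.74) and miR-206-3p had 7.78 RPM in SMK PACs and 32.3 RPM in CTL PACs (0.241-fold, 0.123 to 0.436). The part of these cells in the folds of other miRs was not tested.

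Lists of miRs with known roles in vessel growth were described beside all 146 miRs, of which 14.4% were lower and 20.5% higher, with a median log2 fold of 0.20. Of 14 tested antiangiogenic miRs, none was lower, 7 lay between the limits and 7 were higher, with a median log2 fold of 0.65. The higher ones were miR-320-3p, miR-342-3p, miR-92a-3p, miR-361-5p, miR-222-3p, miR-24-3p and miR-15b-5p, the last 2 of which lost the call under the trimmed mean (1.57-fold for miR-24-3p and 1.54-fold for miR-15b-5p). MiR-222-3p had 587 RPM in SMK PACs and 311 RPM in CTL PACs (1.89-fold, 1.72 to 2.08), while its cluster partner miR-221-3p had 4451 RPM in SMK PACs and 3359 RPM in CTL PACs (1.33-fold, 1.28 to 1.37). Of 10 tested proangiogenic miRs, 2 were lower, 6 lay between and 2 were higher, with a median log2 fold of 0.17, which turned negative with a trimmed mean of log ratios. Its lower members were miR-31-5p and miR-17-5p, and its higher members were miR-132-3p and miR-10b-5p. MiR-20a-5p, which has the seed of miR-17-5p, was on the antiangiogenic list instead (0.897-fold), so the 2 lists are not cleanly separated. MiR-92a-3p, miR-222-3p and miR-342-3p were named by the study from these libraries. The study also named miR-361 as raised in aging and miR-15b-5p as raised in HC, both against the same CTL library. The count and the median of the antiangiogenic list are therefore not independent evidence of a direction.

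Of 8 Hox cluster and stem cell miRs, 2 were lower and 2 were higher, near the shares of 14.4% and 20.5% over all 146 miRs. The lower ones were miR-196a-5p, with 663 RPM in SMK PACs and 868 RPM in CTL PACs (0.763-fold, 0.710 to 0.821), and miR-196b-5p, made in an exon of Hoxa9 on chromosome 6, with 498 RPM in SMK PACs and 653 RPM in CTL PACs (0.761-fold, 0.700 to 0.828). The higher ones were miR-125a-5p and miR-99b-5p, which is made beside it and let-7e and had 859.9 RPM in SMK PACs and 532 RPM in CTL PACs (1.62-fold, 1.499 to 1.74). After median ratio scaling miR-99b-5p was at 1.45-fold, no longer higher. Of 4 tested p53-induced miRs, 2 were lower and none was higher, with a median log2 fold of -0.25 beside 0.20 for all miRs, of which 14.4% were lower. MiR-34c-5p had 274 RPM in SMK PACs and 359 RPM in CTL PACs (0.763-fold, 0.681 to 0.855) and miR-192-5p had 262 RPM in SMK PACs and 336 RPM in CTL PACs (0.779-fold, 0.692 to 0.875), whereas the far more abundant miR-34a-5p had 7262 RPM in SMK PACs and 7376 RPM in CTL PACs (0.984-fold, 0.962 to 1.01). The hypoxia-induced miR-210-3p had 215 RPM in SMK PACs and 229.8 RPM in CTL PACs (0.936-fold, 0.818 to 1.07).

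The remaining lists held few called miRs, beside 14.4% lower and 20.5% higher of all 146 miRs. Of 7 tested arms of the miR-30 family, miR-30b-5p was lower and miR-30d-5p higher, and 5 lay between the limits. Of 3 tested let-7 passenger arms, let-7d-3p was higher, with 225 RPM in SMK PACs and 105 RPM in CTL PACs (2.15-fold, 1.83 to 2.52), and 2 lay between. In the miR-148 and miR-152 family, which represses DNA methyltransferases, miR-148a-3p was lower, with 2642 RPM in SMK PACs and 3451 RPM in CTL PACs (0.766-fold, 0.738 to 0.794), while miR-148b-3p was at 1.04-fold and miR-152-3p at 0.947-fold. All 3 tested miRs of the miR-106b, miR-93 and miR-25 cluster lay between the limits. The liver miR-122-5p had 13.8 RPM in SMK PACs and 11.8 RPM in CTL PACs.

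The folds varied with the base composition of the mature miR, which the choice of miRs did not use. Of 46 miRs with at least 50% G and C, 1 was lower and 17 were higher, with a median log2 fold of 0.50. Of 55 miRs from 40% to under 50%, 8 were lower and 7 were higher, with a median of 0.21. Of 31 miRs under 40%, 9 were lower and 1 was higher, with a median of -0.09. The differences between these medians do not change with the scaling. Across the 132 miRs, Pearson's r between GC percent and log2 fold was 0.48 and Spearman's rho 0.49, given as a description, since the miRs share 2 libraries and many share a seed. Pearson's r was 0.46 over 94 miRs with 1 miR per seed and 0.59 over the 52 miRs with a mean of at least 1000 RPM. The same r was -0.06 for SMK over aging and -0.31 for SMK over HC. With the CTL library that they share with SMK over CTL, it was 0.33 for aging over CTL and 0.46 for HC over CTL. Among the miRs above, miR-29c-3p and miR-7a-5p had 36.4% and 34.8% G and C, and miR-342-3p and miR-92a-3p 52.2% and 57.1%. The part of base composition in any single fold was not tested.

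**Figure D5:**
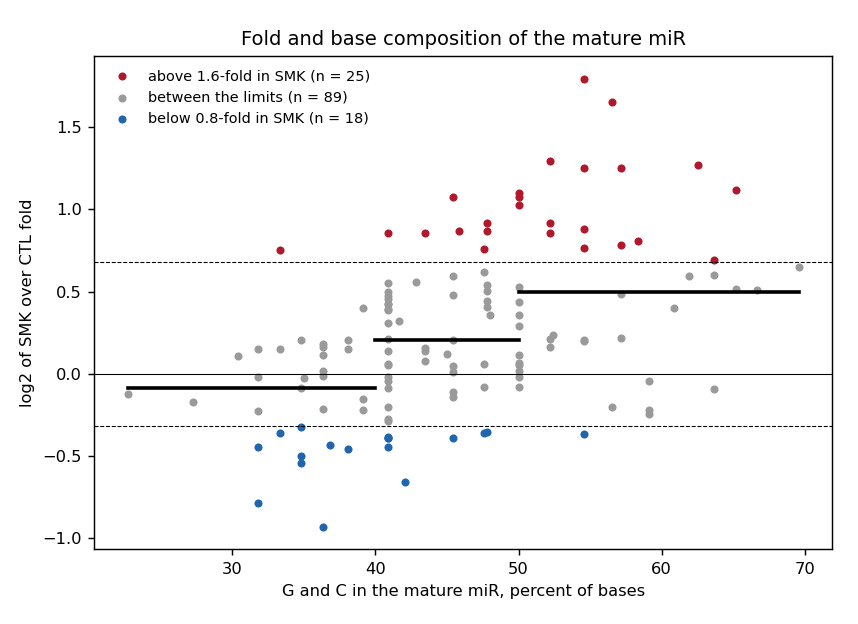
Log2 fold of SMK over CTL (vertical axis) against the share of G and C bases in the mature miR (horizontal axis, percent) for 132 miRs. Points are miRs, dashed lines are the limits, and thick bars are the medians of 31 miRs under 40%, 55 from 40% to under 50% and 46 from 50%. The medians are -0.09, 0.21 and 0.50, and the blue points lie mostly to the left and the red points mostly to the right.

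The first base was U in 69 of the 132 miRs, and these had 13 of the 18 lower miRs with a sequence and 11 of the 25 higher ones. The 30 miRs starting with A had a median log2 fold of 0.41 and those starting with U one of 0.05. By arm, the medians were 0.16 for 68 5p miRs and 0.21 for 59 3p miRs.

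The comparisons of aging and HC share the CTL library with SMK, so only levels are set side by side here. MiR-10b-5p had 1051 RPM in SMK, 187 in aging, 455 in HC and 581 in CTL, so that SMK was the only one of the 3 above CTL. Against the other libraries directly, miR-10b-5p in SMK was at 5.61-fold (4.96 to 6.37) over aging and at 2.31-fold (2.09 to 2.56) over HC. MiR-126a-3p had 30016 RPM in SMK, 12424 in aging, 16558 in HC and 25999.6 in CTL, and miR-145a-5p 483 RPM in SMK, 194 in aging, 384 in HC and 364 in CTL. MiR-31-5p had 175 RPM in SMK, 21.03 in aging, 98.2 in HC and 225 in CTL, and in SMK it was at 8.31-fold (5.79 to 12.3) over aging. Of these 4 miRs, aging was below SMK and CTL in each. MiR-146a-5p, with 21375 RPM in SMK, 24669 in aging, 29869.5 in HC and 28097 in CTL, was below the other 3 in SMK, at 0.866-fold (0.854 to 0.879) over aging and 0.716-fold (0.705 to 0.727) over HC. MiR-155-5p, with 489 RPM in SMK, 649 in aging, 569.8 in HC and 611 in CTL, had the same order of SMK below the other libraries.

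The higher miRs were chosen for lying above the shared CTL library, so only their order beside HC was open. In most of those with a sequence HC lay above SMK, and no share over all miRs was set beside this. Among the higher miRs with a sequence, the exceptions were miR-142a-5p (1.58-fold for HC over CTL), miR-24-3p (1.83-fold) and miR-10b-5p (0.783-fold). The 3 miRs given next had HC above SMK. MiR-501-3p had 492 RPM in SMK, 646 in aging, 1040.4 in HC and 142 in CTL, and SMK over HC was 0.473-fold (0.432 to 0.518). MiR-328-3p had 155 RPM in SMK, 279 in aging, 609 in HC and 43.7 in CTL, and SMK over HC was 0.255-fold (0.219 to 0.295). MiR-92a-3p had 1931 RPM in SMK, 1954 in aging, 3760.4 in HC and 811 in CTL, so that SMK and aging did not differ beyond counting error, at 0.988-fold (0.940 to 1.04). MiR-29c-3p had 3502 RPM in SMK, 3361 in aging, 2761 in HC and 6684 in CTL, and here the 3 libraries lay together below CTL. MiR-132-3p had 197 RPM in SMK, 84.1 in aging, 244 in HC and 93.6 in CTL, with SMK over aging at 2.34-fold (1.91 to 2.89).

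Of the 422 miRs under 100 RPM in both libraries, 103 had at least 50 counts in either library, and of these 14 were below 0.8-fold and 33 above 1.6-fold. The highest fold was that of miR-744-5p, with 74.8 RPM in SMK PACs and 10.2 RPM in CTL PACs, or 125 counts in SMK and 26 in CTL (7.32-fold, 4.77 to 11.6), followed by miR-7015-5p, with 94.0 RPM in SMK PACs and 18.9 RPM in CTL PACs (4.98-fold, 3.58 to 7.03). MiR-484 had 60.5 RPM in SMK PACs and 15.3 RPM in CTL PACs (3.94-fold, 2.70 to 5.86). At the other end, miR-7090-3p had 1 count in SMK and 151 counts in CTL (0.0101-fold, 0.000254 to 0.0570) and 1 count in each of aging and HC. MiR-7222-5p had 10 counts in SMK and 178 in CTL (0.0855-fold, 0.0403 to 0.161), with 7.01 RPM in aging and 3.85 RPM in HC. Both were thus seen mainly in the CTL library. The miRs nearest to the minimum of 100 RPM were miR-378a-5p, miR-7015-5p and miR-378c just under it, at 1.61-, 4.98- and 1.35-fold, and miR-542-3p, miR-130a-3p and miR-503-5p just above it, at 0.580-, 1.10- and 0.869-fold.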

How the data were processed

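The values are the RPM that the authors deposited, reads per 1000000 mapped reads, for 4 libraries of pooled RNA. According to the methods, QIAseq libraries were sequenced on a NextSeq instrument and aligned stepwise by bowtie, with perfect matches to mature miRBase miRs at the start and mismatches tolerated at the end. The submitters' processing notes name bcl2fastq 2.20, TopHat2 2.0.10, HTSeq 0.5.4 and mm10 instead, and the 2 accounts were not reconciled here. Whether reads with 1 molecular identifier were merged is not given in the sources used here, so that steps are called counts. The recovered totals were below the miR reads of the paper's read summary in all 4 libraries, and the reason was not tested. Every value was a whole multiple of the smallest of its library (tolerance 0.001 count, 100% of values), which gave the counts. A count test was not run, since it needs more than 1 library per group.

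Folds are ratios of RPM without a pseudocount. Named were the 15 highest and 15 lowest folds, the 10 most abundant miRs, miRs that the study names for smoking, list members, hairpins whose arm ratio moved by over 2 times, and, under 100 RPM, list members and the 5 highest and 5 lowest folds with at least 50 counts. Others named, such as the near relatives in sequence comparisons, were chosen after their values were seen. The miRs and 31 lists were chosen with earlier results of these data known. Alternatives were other minimums, 3 scalings, pseudocounts of 1 and 10 RPM, other limits, whole intervals and summed seeds. Sequences and hairpin positions are from RefSeq (GRCm38.p6), and host genes from GENCODE for GRCm38. No mature sequence was matched for miR-151-3p, miR-328-3p, miR-320-3p, miR-30b-5p, miR-30d-5p, miR-140-5p, miR-34c-5p, miR-23b-3p, miR-126a-5p, miR-143-3p, miR-145a-5p, miR-185-5p, miR-378a-3p and miR-532-5p. Scripts were tested on simulated data. Python 3.11.15 with numpy 2.4.6, pandas 2.3.3, scipy 1.17.1 and matplotlib 3.10.9 was used, and edgeR 4.0.16 (R 4.3.3) gave the trimmed mean of log ratios.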

Additional observations from a re-analysis of the deposited data

How the results depend on the processing

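The count of lower miRs was 20 to 23 instead of 21 under the other minimums of 100 RPM, pseudocounts and totals without miR-21a-5p, and 16 after seeds were summed. It was 119 with no minimum, 32 with the median ratio, 39 with a trimmed mean of log ratios, 9 with whole intervals past the limit, 2 with limits of 0.6 and 2, and 2 with a lower limit of 1 over 1.6. The count of higher miRs was 21 to 41 instead of 30 under the settings that moved it by less than 1.5 times. It was 182 with no minimum, 17 with a trimmed mean and 14 with limits of 0.6 and 2. The 2 scalings lower every fold, so they could end no lower call. Of the 57 named miRs above 1.6-fold, the median ratio ended 9 and the trimmed mean 16. A pseudocount of 10 RPM ended 17 of these and 8 of the 41 named miRs below 0.8-fold, 1 RPM ended 2 of the 41, and totals without miR-21a-5p ended 1. No named miR past a limit changed its direction, but these settings could not have shown such a change. The largest scaling shift was -0.24 in log2 fold, smaller than the distance of either limit from 1-fold. A pseudocount only draws a fold toward 1. The median log2 fold changed sign in 8 of 28 lists with a trimmed mean, among them endothelial, Hox cluster and stem cell, proangiogenic and inflammation, and in 4 with the median ratio, where the median of all 146 miRs was 0.05. No paired analysis was possible because each group had 1 library. No replicate could be left out for the same reason. A miR at 100 RPM rested on 167 counts in SMK, so that depth limits mainly the miRs under 100 RPM and the minor arms.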
